A study of Mus musculus with 15 samples.

Results

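The genes described here are 10 markers of striated muscle that were read in whole lung: 6 of heart muscle (Myh6, Myl7, Tnni3, Tnnt2, Actc1 and Nppa) and 4 of skeletal muscle (Acta1, Ckm, Myh4 and Mylpf). They were taken by gene symbol from the lung count table, and all 10 were found among its 54532 genes. The mice were wild-type C57BL/6J males, labelled 28-week-old, that received a control diet (CS) or a diet with 2% phytosterols (PS), the plant sterols that compete with cholesterol for uptake in the gut. Age at purchase, adaptation and feeding together, as the study's methods give them, add up to an older age than that label. Lung was sequenced from 3 CS and 3 PS mice and liver from 4 CS and 5 PS mice, with 1 library per mouse and tissue, and 6 mice gave both tissues. The lungs carried 17934930 to 19396057 counts per library and the livers 14410117 to 17625179. RNA came from a frozen piece of each organ, after blood had been drawn from the heart, and no source used here says which lobe or whether large vessels and airways were trimmed away.

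Striated muscle contracts when calcium binds the troponin complex on actin filaments and lets myosin pull on them, and heart and skeletal muscle build this apparatus from partly different genes. Myh6 encodes the alpha myosin heavy chain, the main cardiac form of the adult mouse, and Myl7 the regulatory light chain of atrial muscle. Tnni3 and Tnnt2 encode the cardiac troponins I and T, Actc1 cardiac alpha-actin, and Nppa the atrial natriuretic peptide. Acta1 encodes skeletal alpha-actin, Ckm the muscle creatine kinase, Myh4 the fastest skeletal myosin heavy chain and Mylpf the regulatory light chain of fast fibres. In mice, heart muscle extends from the left atrium along the pulmonary veins into the lung, so that cardiac transcripts are a known part of lung RNA, whereas lung itself has no skeletal muscle and is surrounded by the diaphragm, the chest wall and the oesophagus. The labelled tissue was met by its own markers, since the 10 lung genes listed (surfactant proteins, Scgb1a1, Ager and the like) summed to between 65310 and 103100 CPM (counts per 1e6 counts of the library) in each lung. On GRCm38 the cardiac genes are placed with Myh6 at chr14:54941921-54966927, Myl7 at chr11:5896637-5898782, Tnni3 at chr7:4518305-4524229, Tnnt2 at chr1:135836354-135852260, Actc1 at chr2:114047282-114053548 and Nppa at chr4:148000722-148002079. The skeletal genes are placed with Acta1 at chr8:123891769-123894751, Ckm at chr7:19404776-19422841, Myh4 at chr11:67238029-67260446 and Mylpf at chr7:127208890-127214298. For each of the 10 members, the gene length in the deposited table equals the summed exon bases of GENCODE M21, untranslated exons included.

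Sequences are given for the 2 alpha-actins, because reads from so similar a pair might be exchanged, and for the promoters that hold a motif known from muscle genes. The coding sequences of Acta1 and Actc1 (GENCODE M21 transcripts, GRCm38) are each 1134 bases long and 86.2% identical, with 157 mismatches. Their first 150 coding bases are printed 5′ to 3′ with the 21 mismatched bases in capitals.
Acta1, bases 1 to 150: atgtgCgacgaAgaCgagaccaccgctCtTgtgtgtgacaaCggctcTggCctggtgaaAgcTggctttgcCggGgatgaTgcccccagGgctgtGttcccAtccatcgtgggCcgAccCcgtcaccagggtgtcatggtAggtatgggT
Actc1, bases 1 to 150: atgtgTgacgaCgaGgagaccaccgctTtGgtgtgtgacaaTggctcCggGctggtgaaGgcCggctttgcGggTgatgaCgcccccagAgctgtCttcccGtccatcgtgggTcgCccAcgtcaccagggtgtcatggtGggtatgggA
The longest identical run between them was 29 bases, and no stretch of 100 bases of either transcript set was shared with another gene. A read that lies in the coding sequence and is longer than 29 bases therefore crosses at least 1 mismatch between the 2 actins. Of the other members, Myl7, Tnni3, Tnnt2 and Mylpf shared no such stretch either, while Myh6 shared 10.04% of its 100-base stretches, led by Myh7, and Myh4 shared 3.85%, led by Myh1.

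The kit does not mark strand, so that a gene and an antisense neighbour cannot be told apart in shared exons. Nppa has 61.5% of its exon bases covered by the antisense gene Gm13054, Ckm 15.5% by A930016O22Rik, Tnni3 4.2% by Dnaaf3 on its own strand and Myh6 1.7% by Gm49130. In the lungs Gm13054 had 0 or 1 count, Gm49130 at most 2 and A930016O22Rik at most 6, whereas Dnaaf3 had 90 to 291. The values of Nppa and Ckm are uncertain, and low counts of the neighbours do not bound this. Other listed genes with much covered exon were low: Tagln, 67.9% covered, averaged 2.89 CPM in CS and 2.64 CPM in PS lungs. Tnnc2, 74.0% covered, had 0 counts in every lung. Whether reads in shared exons were left out of the counts, which would make the CPM and FPKM of Nppa too low, was not tested.

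The RefSeq promoter windows of the 10 members (GRCm38.p6, 300 bases each) were searched on both strands for 5 motifs, and the same search was made in all 32851 RefSeq windows. The TATA box (TATAA) was found in 7 of the 10 members against 24.9% of all windows, the E box (CANNTG) in 10 against 72.3%, GATA in 8 against 57.9%, the CArG box in 4 against 1.6% and the MEF2 site in 1, Myh4, against 3.2%. The letters of the TATA box can lie within those of the CArG box or the MEF2 site. The CArG box, the site bound by serum response factor in many muscle genes, was chosen for printing after these counts were seen. It was found on either strand in the 150 bases before the RefSeq start of the same 4 members, against 0.92% of all windows cut to that length. The matches are a description of these letters and not of binding. The windows are printed on the gene's strand with the box in capitals.
Actc1, chr2:114052876-114053025, minus strand: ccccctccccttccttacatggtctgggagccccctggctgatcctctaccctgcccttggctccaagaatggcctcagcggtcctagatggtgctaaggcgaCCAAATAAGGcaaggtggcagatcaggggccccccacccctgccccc
Myl7, chr11:5898783-5898932, minus strand: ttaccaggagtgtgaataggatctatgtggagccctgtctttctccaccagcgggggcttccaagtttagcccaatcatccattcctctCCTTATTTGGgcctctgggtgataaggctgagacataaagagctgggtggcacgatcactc
Acta1, chr8:123894776-123894925, minus strand: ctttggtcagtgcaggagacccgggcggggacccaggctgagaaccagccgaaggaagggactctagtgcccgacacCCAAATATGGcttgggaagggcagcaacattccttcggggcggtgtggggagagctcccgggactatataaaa
Myh4, chr11:67237662-67237811, plus strand: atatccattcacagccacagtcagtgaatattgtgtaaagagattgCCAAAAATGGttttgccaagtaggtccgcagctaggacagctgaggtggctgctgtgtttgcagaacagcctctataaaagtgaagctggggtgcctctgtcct
The box began 47 bases before the start in Actc1, 61 in Myl7, 73 in Acta1 and 104 in Myh4. It was present in 2 cardiac and 2 skeletal members and so did not separate the sets.

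Cardiac members were read in every lung but at very unequal levels, and the diets did not differ beyond that spread. Levels below are CPM on library sizes scaled by edgeR's TMM factors, and lungs are named by diet and replicate number. PS1 had the highest level of 4 of the 6 cardiac members, PS2 and PS3 had low levels of most of them, and the CS lungs lay between. None of the 6 passed an adjusted p of 0.05 in edgeR's quasi-likelihood test, in which 9.22% of the 16717 genes tested in lung passed (4.8% as higher and 4.43% as lower in PS). Actc1 alone had an unadjusted p under 0.05, as 30.1% of all genes did, and it alone passed in DESeq2, as 18.5% did.

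Myh6, the alpha myosin heavy chain, was read at 49.6, 56.1 and 28.6 CPM in the lungs of CS1, CS2 and CS3 and at 142, 0.0558 and 8.66 CPM in those of PS1, PS2 and PS3. The value of PS2 rested on 1 count, against 2395 counts in PS1. The PS lungs thus lay both above and below all CS lungs, and the fitted log2 fold change of PS over CS was 0.16 (SE 1.75, edgeR adjusted p = 0.963). The exact 95% Poisson interval of PS2, 0.00141 to 0.311 CPM, lay wholly below that of PS3, 7.36 to 10.1 CPM, and such intervals cover counting error only.

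Myl7, the atrial light chain, was at 23.2, 37.3 and 23.7 CPM in the CS lungs and at 118, 6.08 and 6.95 CPM in the PS lungs. Its order repeated that of Myh6 at the top, with PS1 3.16-fold above the next lung, but PS2 kept 109 counts. The log2 fold change was 0.63 (SE 1.26, edgeR adjusted p = 0.773).

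Tnnt2, cardiac troponin T, was at 24.2, 47.7 and 35.7 CPM in the CS lungs and at 95.6, 5.25 and 13.5 CPM in the PS lungs. Again 1 PS lung lay above and 2 lay below all CS lungs, and the log2 fold change was 0.09 (SE 1.07, edgeR adjusted p = 0.969). Tnni3, cardiac troponin I, was at 8.24, 26.6 and 14.4 CPM in the CS lungs and at 69.7, 8.65 and 16.8 CPM in the PS lungs. Here PS2 and PS3 lay within the CS range, and the log2 fold change was 0.95 (SE 0.86, edgeR adjusted p = 0.503).

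Actc1, cardiac alpha-actin, was the most even member and the only one whose diet groups did not overlap. It was at 60.1, 87.0 and 72.8 CPM in the CS lungs and at 56.2, 20.99 and 40.2 CPM in the PS lungs. Every PS lung was below every CS lung, with PS1 only narrowly so. The groups did not overlap for 36% of all genes tested, and 18.8% were apart with PS lower. The log2 fold change was -0.91 (SE 0.31), with an adjusted p of 0.0939 in edgeR and of 0.0293 in DESeq2, and the adjusted p ranged from 0.0279 to 0.235 over the alternatives. With 3 lungs a group, an exact permutation test of a single gene cannot give less than p = 0.1.

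Nppa, the atrial natriuretic peptide, was at 1.21, 8.74 and 0.706 CPM in the CS lungs and at 5.33, 0 and 0.0552 CPM in the PS lungs. CS2 and PS1 were high, and CS1 and CS3 were lower, at 24 and 13 counts. PS2 and PS3, with 0 and 1 count, lay below every CS lung, whereas PS1 lay within the CS range. The 0 of PS2 allows up to 0.168 CPM (3 counts), and the log2 fold change of -0.997 (SE 1.74) had an edgeR adjusted p of 0.741.

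**Figure D1:**
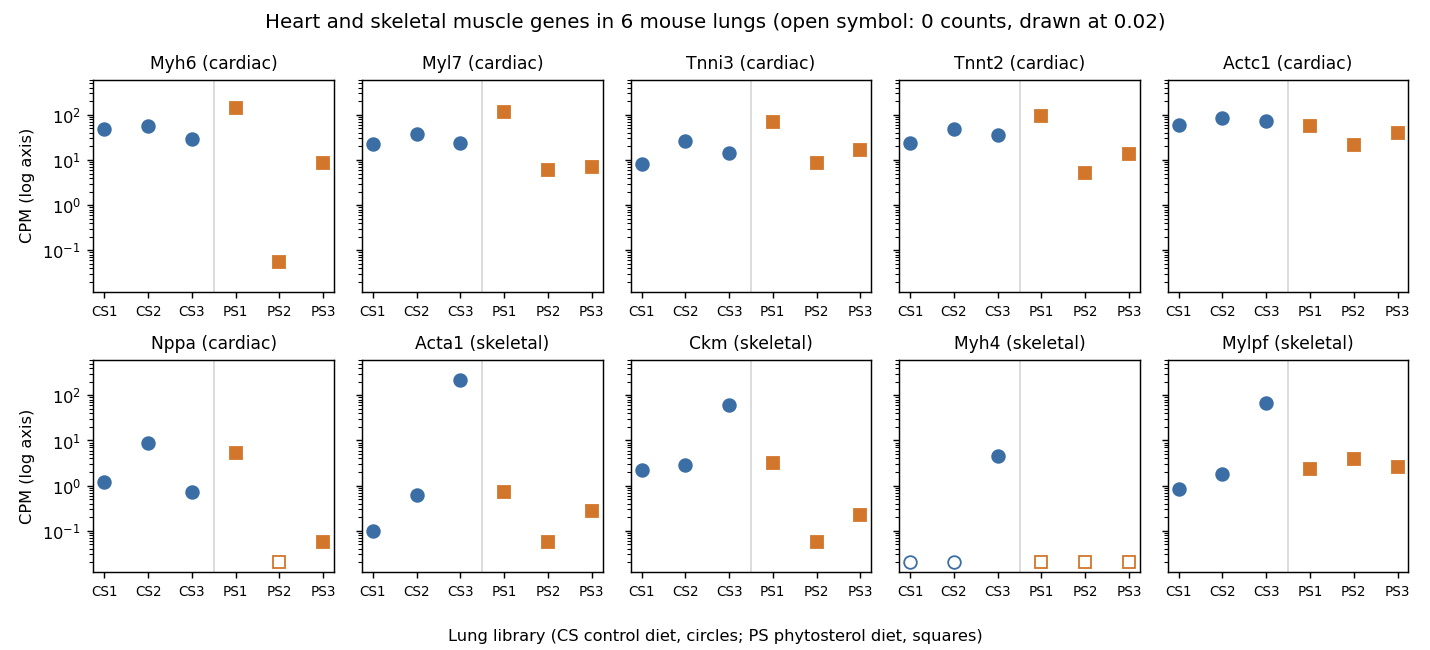
Level of each of the 10 genes in CPM (log axis) in the 6 lungs, with CS lungs as blue circles and PS lungs as orange squares, and open symbols at 0.02 for lungs with 0 counts. PS1 stands highest in 4 of 6 cardiac genes, and CS3 stands highest in all 4 skeletal genes.

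Skeletal members were read at high levels in a single lung, CS3, and at far lower levels elsewhere, where Mylpf still had 17 to 70 counts, Ckm 1 to 57, Acta1 1 to 12 and Myh4 none. CS3 had the highest level of 4 of 4 skeletal members, and the CS group overlapped with the PS group for each of them. Of the 4, 3 passed the filter on low counts and none of these passed an adjusted p of 0.05 in edgeR or had an unadjusted p under 0.05. DESeq2 gave no p-value for these 3, nor for Myh6 and Myl7, because it set each aside for a library far from the fit.

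Acta1, skeletal alpha-actin, was at 0.101, 0.617 and 221 CPM in the CS lungs and at 0.71, 0.0558 and 0.276 CPM in the PS lungs. The 4072 counts of CS3 stood against 1 to 12 counts in each of the other 5 lungs, and CS3 was 311-fold above the next lung. The log2 fold change of -7.73 carried an SE of 3.32 (edgeR adjusted p = 0.199) and summarised a contrast between 1 lung and 5.

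Ckm, the creatine kinase of muscle, was at 2.17, 2.93 and 60.4 CPM in the CS lungs and at 3.14, 0.0558 and 0.221 CPM in the PS lungs. Apart from CS3, its order resembled that of the cardiac genes, with PS2 and PS3 lowest, and Ckm is also made in heart muscle. The log2 fold change was -4.28 (SE 1.97, edgeR adjusted p = 0.219). Mylpf, the fast light chain, was at 0.859, 1.85 and 67.8 CPM in the CS lungs and at 2.37, 3.91 and 2.54 CPM in the PS lungs. Without CS3 the 3 PS lungs would be the higher ones, and the log2 fold change over all lungs was -2.995 (SE 1.76, edgeR adjusted p = 0.315).

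Myh4, the fastest myosin heavy chain, had 84 counts in CS3, or 4.56 CPM, and 0 counts in the other 5 lungs. A count of 0 allows at most 0.178 CPM in these lungs. The gene did not pass the filter on low counts and was not tested.

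Since the piece of lung was sequenced in bulk, fewer muscle cells and less RNA per muscle cell cannot be told apart for any of these genes. The cardiac members together took 0.00407% to 0.0450% of a lung library's counts, and the skeletal members took 0.0363% in CS3. Their summed level was 167, 263 and 176 CPM in the CS lungs and 486, 41.0 and 86.1 CPM in the PS lungs for the cardiac set. Group means were thus nearly equal, at 202 ± 53.4 CPM in CS and 205 ± 245 CPM in PS (SD, n = 3 each), with a far wider spread in PS. The skeletal set summed to 3.13, 5.397 and 354 CPM in the CS lungs and to 6.21, 4.02 and 3.04 CPM in the PS lungs. The 5 lungs other than CS3 thus lay within about the same low range under both diets.

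Per unit length, as the deposited FPKM give it, Myl7 had the highest mean level over the 6 lungs at 61.2 ± 71.9 FPKM, followed by Actc1 at 34.9 ± 14.5 FPKM. Acta1 came next at 24.1 ± 58.4 FPKM, almost wholly from the 143 FPKM of CS3, and Mylpf followed at 12.4 ± 25.1 FPKM. Tnni3 had 11.8 ± 11.5 FPKM, Myh6 7.11 ± 7.71 FPKM, Tnnt2 4.803 ± 4.25 FPKM, Ckm 3.93 ± 8.20 FPKM, Nppa 3.11 ± 4.16 FPKM and Myh4 0.126 ± 0.308 FPKM (SD, n = 6). No neighbours in this order differed beyond their spread. Within PS2 the order was another, with Actc1 first at 13.2 FPKM, Myl7 at 10.45 FPKM and Myh6 at 0.00841 FPKM.

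The cardiac members did not keep 1 ratio to each other across lungs. Myh6 had 0.825, 0.645 and 0.392 counts per count of Actc1 in the CS lungs and 2.52, 0.00266 and 0.215 in the PS lungs. Tnni3 kept 0.412 counts per count of Actc1 in PS2, where Myh6 had nearly none. In the skeletal set, Acta1 had 3.26 counts per count of Mylpf in CS3 and at most 0.333 in the other lungs.

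The members varied more between lungs of the same diet than most genes did, as did some marker lists of other tissues. The within-group SD of log2 CPM had a median of 0.271 over all 16717 genes tested and a 95th percentile of 0.815. Acta1 had 3.88, Myh6 3.49, Nppa 2.54, Ckm 2.44, Mylpf 2.34, Myl7 1.72, Tnnt2 1.54 and Tnni3 1.23 on this measure. These 8 of the 9 members tested exceeded the 95th percentile, whereas Actc1, with 0.54, did not. The median SD was 1.63 over the 6 cardiac and 2.44 over the 3 skeletal members tested. It was 2.45 over the fat genes, of which 6 of 8 tested exceeded the 95th percentile, 1.39 over the mesothelium genes, of which 4 of 4 did, and 2.82 over the liver genes read in lung, of which 2 of 2 did. A wide spread was therefore not particular to the muscle genes.

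**Figure D2:**
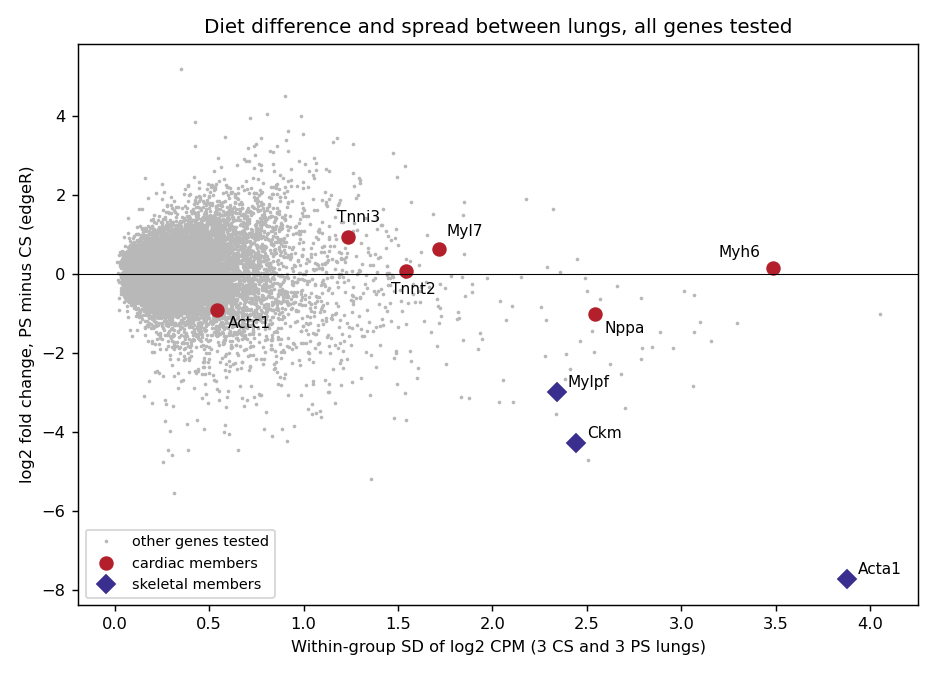
Each point is 1 of the 16717 genes tested in lung, with the within-group SD of log2 CPM on the horizontal axis and the edgeR log2 fold change of PS over CS on the vertical axis; red circles are cardiac and blue diamonds skeletal members. Actc1 lies inside the cloud of all genes at an SD of 0.54, and the other 8 members lie to its right, above an SD of 1.2.

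Leaving out 1 lung at a time changed the direction for 5 of the 6 cardiac members. Without PS1, all 6 had a log2 fold change below 0, with a median of -2.03, and 3 of the 6 passed as lower in PS, against 6.95% of the 17227 genes tested (17.1% in either direction). Those 3 were Myl7 at -2.11 (SE 0.27, edgeR adjusted p = 0.00559), Tnnt2 at -1.94 (SE 0.45, adjusted p = 0.0301) and Actc1 at -1.27 (SE 0.29, adjusted p = 0.0284). Myh6 at -3.36 (SE 1.12, adjusted p = 0.0869) and Nppa at -6.70 (SE 1.87, adjusted p = 0.0541) did not pass. With all 6 lungs, 4 of the 6 cardiac members had a fold change above 0 and their median was 0.124, beside a median of 0.00518 for all genes.

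Without CS3, the log2 fold change of Acta1 moved to -0.03, that of Ckm to -1.13 and that of Mylpf to 1.15, and no member passed. At that setting none of 17190 genes passed in edgeR, with 3890 at an unadjusted p under 0.05. Without CS3 and PS1 together, Myl7 at -2.18 (adjusted p = 0.0215), Nppa at -7.16 (adjusted p = 0.0406) and Ckm at -4.11 (adjusted p = 0.0272) passed as lower in PS, against 1.71% of 16979 genes (6.53% in either direction). The fit without both lungs was chosen after the levels of these genes were seen. Taking out PS1, the lung highest in most cardiac members, by itself favours lower PS levels of them, so these calls are a description only. Actc1, Acta1 and Ckm stayed below 0 whichever single lung was left out, whereas the direction of the other 6 members tested turned with at least 1 lung left out.

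**Figure D3:**
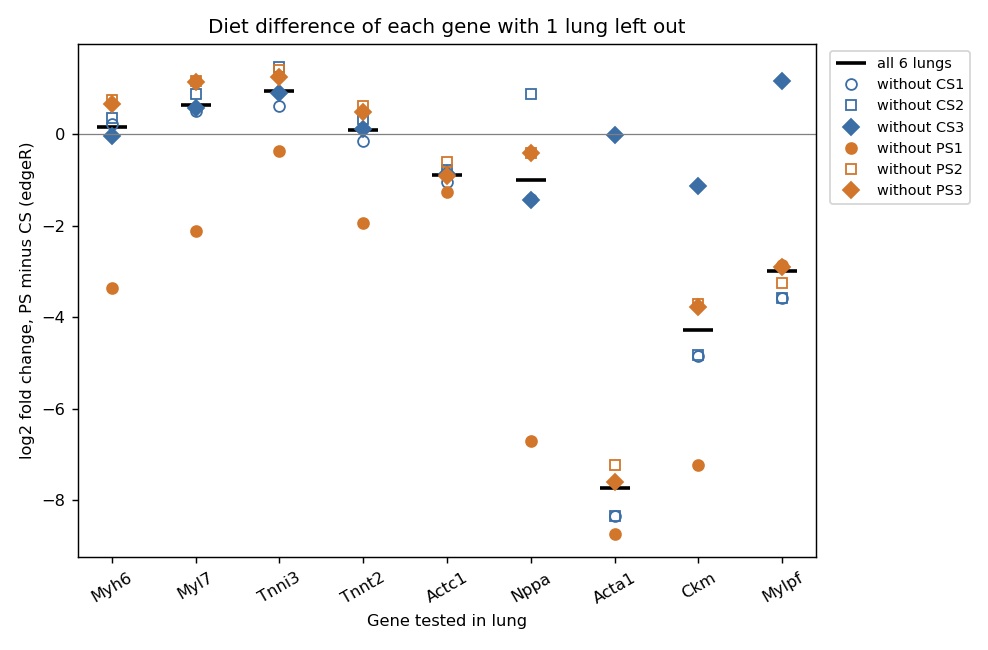
Log2 fold change of PS over CS for the 9 members tested, with all 6 lungs (black bars) and with each lung left out in turn (blue, CS lung left out; orange, PS lung left out). Filled orange circles, the fits without PS1, lie below 0 for every gene shown, and filled blue diamonds, the fits without CS3, lie near 0 for Acta1 and above 0 for Mylpf.

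Many, though not all, of the other striated muscle genes varied between lungs as the members did. Over 6 further lists of heart and skeletal muscle genes, 59 genes could be tested and 3 passed, all lower in PS, where 4.43% of all genes passed as lower. Slc8a1, the sodium-calcium exchanger of the heart, was at 5.81, 5.86 and 4.18 CPM in the CS lungs and at 0.769, 1.23 and 1.60 CPM in the PS lungs (log2 fold change -2.13, SE 0.35, edgeR adjusted p = 0.0203). The deposited table gives Slc8a1 a length of 2934 bases, against 18807 exon bases in GENCODE M21, so that its level may rest on a part of that gene model. Nebl, which encodes the Z-disc protein nebulette, was at 269, 223 and 205 CPM in the CS lungs and at 152, 151 and 162 CPM in the PS lungs (-0.58, SE 0.15, adjusted p = 0.0471). It thus kept its level in PS2, where Myh6 had 1 count, and which cells of the lung made Nebl was not tested. Myocd, the coactivator myocardin of heart and smooth muscle, was at 1.21, 1.95 and 1.303 CPM in the CS lungs and at 0.178, 0.502 and 0.497 CPM in the PS lungs (-1.90, SE 0.49, adjusted p = 0.0463). In these 3 genes PS1 was as low as the other PS lungs, unlike in the cardiac members, and each lost its call when CS1, CS2, CS3 or PS2 was left out, settings at which 23, 26, 0 and 9 lung genes of any kind passed. The log2 fold change of Slc8a1 then lay between -2.24 and -2.07. The adjusted p was then 0.0766 to 0.0889 for Slc8a1, 0.114 to 0.137 for Nebl and 0.121 to 0.165 for Myocd, and without PS1 it was 0.0515 for Nebl and 0.0531 for Myocd, and without PS3 0.0546 for Myocd.

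In the list of cardiac sarcomere genes, 18 of 19 were tested, 1 passed, the median log2 fold change was -0.26, and PS1 was the highest lung for 12 of the 19. Myl4, the atrial essential light chain, was at 34.3, 48.7 and 29.9 CPM in the CS lungs and at 83.4, 2.07 and 9.22 CPM in the PS lungs, the pattern of Myl7. Tcap, the titin cap, was at 6.77, 12.54 and 19.9 CPM in the CS lungs and at 32.5, 3.63 and 5.46 CPM in the PS lungs. Ttn, titin, was at 8.09, 8.79 and 11.1 CPM in the CS lungs and at 19.5, 8.82 and 6.24 CPM in the PS lungs. PS1 was the highest lung for all 3.

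Not every listed cardiac gene followed. Myom1, an M-band protein also of skeletal muscle, was at 15.2, 18.0 and 28.5 CPM in the CS lungs and at 22.6, 32.4 and 36.4 CPM in the PS lungs, with PS2 and PS3 highest. Myh7, the beta myosin heavy chain that shares sequence with Myh6, stayed between 5.27 and 7.38 CPM in all 6 lungs, also where Myh6 was at 142 or 0.0558 CPM. Myl2, the ventricular light chain, was at most 0.331 CPM and the ventricular factor Irx4 had 0 counts in every lung, while the atrial genes Myl7 and Myl4 were well above that in all 6. Myl3, a light chain of ventricle and slow skeletal fibres, was at 41.9 CPM in CS3 and at most 1.48 CPM elsewhere, which is the pattern of the skeletal members.

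Among the genes of cardiac calcium handling, conduction and hormones, 12 of 16 were tested, 1 passed (Slc8a1) and 11 had a fold change below 0, as 8289 of all 16717 genes tested did; the list's median was -0.42. Sln, the atrial calcium pump inhibitor sarcolipin, was at 7.18, 15.1 and 23.5 CPM in the CS lungs and at 33.3, 0 and 0.828 CPM in the PS lungs. Ryr2, the cardiac calcium release channel, was at 10.9, 10.9 and 9.23 CPM in the CS lungs and at 9.23, 3.52 and 5.52 CPM in the PS lungs. Atp2a2, a calcium pump that most cells make, was at 161 to 263 CPM. The lower level in PS2 and PS3 was thus seen again in Sln and Ryr2, and to a lesser degree in Atp2a2. Gja5 and Jph2 of the same list averaged 49.7 ± 23.6 and 26.4 ± 2.72 CPM in the CS lungs (SD, n = 3). In the PS lungs they averaged 31.3 ± 3.64 and 19.7 ± 2.91 CPM, with no wide split between PS1 and the other PS lungs.

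Of the cardiac transcription factors, 4 of 9 were tested and Myocd alone passed. Tbx5, which lung mesenchyme also makes, was at 27.5 to 35.6 CPM in the CS lungs and at 29.9, 47.8 and 44.1 CPM in the PS lungs. Nkx2-5 was at most 0.296 CPM. Of the genes of muscle energy metabolism, 11 of 12 were tested and none passed in edgeR or DESeq2. None had an unadjusted p under 0.05 in edgeR, whereas Eno3 had 0.0183 in DESeq2 (adjusted p = 0.0805). Mb, the oxygen store myoglobin, was at 11.5, 13.4 and 40.4 CPM in the CS lungs and at 17.5, 0 and 0.276 CPM in the PS lungs. Mb was thus highest in CS3, with the skeletal genes, and nearly absent in PS2 and PS3, with the cardiac ones. Fabp3, the heart fatty acid binding protein, was at 17.2, 15.5 and 11.9 CPM in the CS lungs and at 29.8, 6.03 and 7.06 CPM in the PS lungs. Eno3, the muscle enolase, had the highest mean level of the list and went another way, at 13.2, 14.8 and 35.9 CPM in the CS lungs and at 26.9, 43.9 and 46.1 CPM in the PS lungs. Pygm, the muscle glycogen phosphorylase, was at 13.2, 19.2 and 27.7 CPM in the CS lungs and at 20.1, 20.8 and 22.5 CPM in the PS lungs. Neither gene was low in PS2 and PS3.

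Of the skeletal sarcomere and calcium genes, 13 of 22 were tested and none passed in edgeR, with 2 at an unadjusted p under 0.05 and 1 passed in DESeq2. CS3 was the highest lung for 18 of the 22. Tnnt3, fast troponin T, was at 64.6 CPM in CS3 and at 1.12 to 4.68 CPM elsewhere, and Tnni2, fast troponin I, was at 53.0 CPM in CS3 and at 1.71 to 2.49 CPM elsewhere. Myh1, a fast myosin heavy chain, was at 15.7 CPM in CS3 and at most 0.223 CPM elsewhere, and Myoz1, a Z-disc protein, was at 14.7 CPM in CS3 and at most 0.253 CPM elsewhere (both named after their values were seen). The fibre-type genes Myh2 and Tnni1 stayed at or below 0.202 CPM in every lung. Among 7 regulators of skeletal muscle, Chrna1 alone was tested and did not pass, and Myod1 had 3 counts in PS3 and none in the other lungs. Myf6, a regulator that mature fibres keep, had 14 counts in CS3 and none in the other 5 lungs, the pattern of Myh4.

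**Figure D4:**
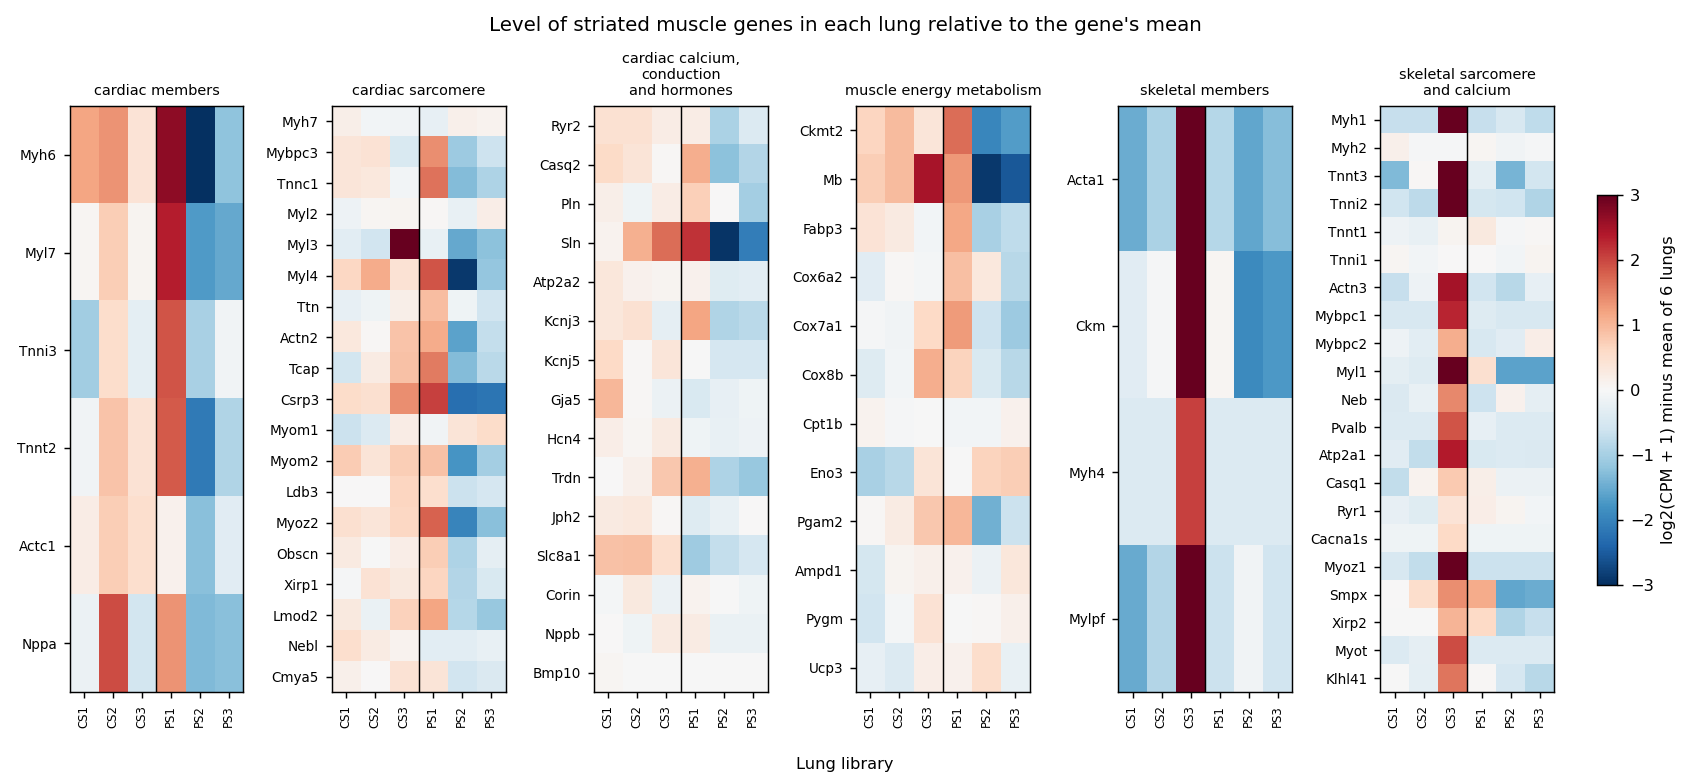
Colour gives log2(CPM + 1) of a gene in a lung minus the gene's mean over the 6 lungs, for the cardiac and skeletal members and 4 further lists, with the diets parted by a line and colours ending at 3 in either direction. PS1 is red and PS2 and PS3 are blue for many of the cardiac genes, and CS3 is the red column of the skeletal genes.

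Markers of other cell types were summed in each lung to set beside these values. Fat markers summed to 177, 237 and 62.2 CPM in the CS lungs and to 193, 12.6 and 11.4 CPM in the PS lungs, so that PS2 and PS3 were low in fat genes as well as in cardiac ones. Of the 9 fat genes, 3 were at 0 in PS2 and 3 in PS3, among them Adipoq and Cfd, which mark fat cells, and none was at 0 in PS1. With all lungs, all 8 fat genes tested had a fold change below 0 and none passed in edgeR (1 had an unadjusted p under 0.05 and 1 passed in DESeq2). Once PS1 was left out, 5 of the 8 passed as lower in PS (log2 scale, list median -6.833). Once CS3 and PS1 were both left out, 7 of the 8 did (list median -7.245). Of the 6 cardiac members, 3 and 2 passed as lower in these same fits. The fat calls are likewise a description only. The part of fat tissue in the cardiac differences was not tested.

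In CS3, markers of squamous epithelium summed to 24.0 CPM, against 0.441 to 2.74 CPM in the other lungs, with Krt13 at 9.44 CPM and Krt5 at 7.98 CPM, and 4 of the 5 genes were highest in CS3 while Krt6a had 0 counts in every lung. The brown fat gene Ucp1 was at 6.02 CPM in CS3 and at most 0.303 CPM elsewhere. Both moved with the skeletal members, and their part in the result was not tested. Genes of cartilage summed to at most 0.607 CPM and of thymus to at most 0.533 CPM in every lung. Smooth muscle genes, such as Acta2 and Myh11, summed to 749 to 1295 CPM and followed neither set. Mesothelial genes ranged from 37.0 to 295 CPM with the highest sum in PS2, and liver genes summed to 85.1 CPM in CS1 and at most 14.0 CPM elsewhere.

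**Figure D5:**
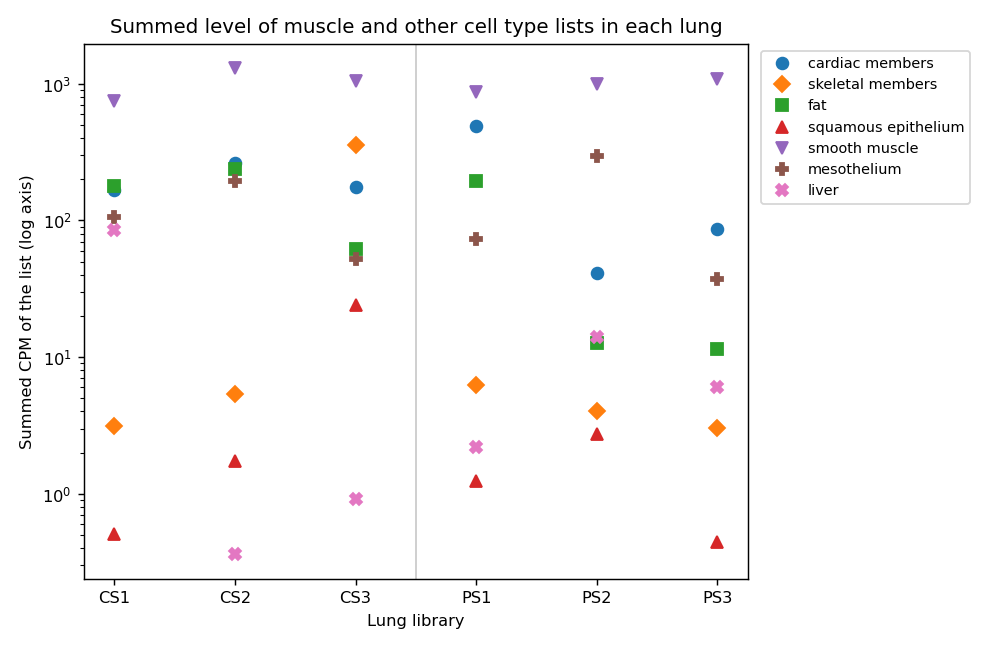
Summed CPM (log axis) of the cardiac and skeletal members and of 5 marker lists of other cell types in each of the 6 lungs. Cardiac and fat sums are lowest in PS2 and PS3, and the skeletal and squamous sums are highest in CS3, at 354 and 24.0 CPM.

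CS3 was also the lung with most genes standing far above the rest: 33 genes with at least 10 counts were 10-fold or more above the next lung there, and 16 of these were in the muscle lists. In CS1 28 genes did so and none was a muscle gene, and in PS1 none did. The high cardiac levels of PS1 were thus within 10-fold of the next lung for every gene.

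By likeness of pattern over the 6 lungs (root mean square difference of centred log2 CPM, 14232 genes searched), Myl4 was nearest to the mean cardiac pattern, at 0.34. It was followed by Fndc5, Cyp2a5, A2ml1, Hrc, Serpina9, Casq2, Oit1, Lypd2 and Tnnc1, the last at 0.57. Among these, Myl4, Tnnc1, Casq2 and Hrc belong to the contractile and calcium store apparatus of the heart, and Cyp2a5 is a cytochrome P450 that was at 37.9, 90.9 and 40.6 CPM in the CS lungs and at 139, 9.99 and 23.5 CPM in the PS lungs. Of the members themselves, Tnnt2 at 0.30 and Myl7 at 0.52 lay nearest to their common mean and Myh6 at 1.79 farthest. Nearest to the mean skeletal pattern were Tnnt3 at 0.83, Myl3 at 0.93, Tnni2 at 1.05, Actn3 at 1.09 and the immunoglobulin segment Igkv12-89 at 1.17. The last was at 16.6 CPM in CS3 and at most 1.24 CPM in the other lungs. Likeness over 6 libraries is a description, and many genes share a single high lung.

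Liver gave the level of the same genes in another organ of the same mice. Myh6, Nppa, Ckm and Myh4 had 0 counts in all 9 livers, and Acta1 had 1 count in 1 liver. Actc1 had at most 2 counts, Tnni3 at most 9, Myl7 at most 13 and Tnnt2 2 to 27. Mylpf, at 6 to 25 counts, was the only member to pass the filter in liver, with a log2 fold change of 0.36 (SE 0.51, edgeR adjusted p = 0.944), where 0.00758% of 13195 genes passed and 7.55% had an unadjusted p under 0.05. The mouse whose lung was CS3 had 8 counts of skeletal members in its liver, all of them Mylpf, against 6518 in its lung. The mouse whose lung was PS1 had 12 counts of cardiac members in its liver, against 8217 in its lung. The high levels of CS3 and PS1 were not seen in the other organ of the same mouse.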

How the data were processed

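Polyadenylated RNA of frozen lung and liver was sequenced by the authors in paired ends. Per the labels, reads were aligned to mm10, and the submitters' processing notes name HISAT2 2.0.5, featureCounts 1.5.0-p3 and DESeq2 1.20.0; whether counting used strand is not given in the sources used here. The authors deposited raw counts per gene and FPKM values. Here the counts were tested with edgeR 4.0.16 (TMM, filterByExpr, robust quasi-likelihood fit, Benjamini-Hochberg adjustment) in R 4.3.3, separately by tissue, with diet as the only term. Log2 CPM used a prior count of 2. Limma 3.58.1 on the deposited FPKM (pseudocounts 1 and 0.1) and DESeq2 1.42.0 were alternatives. Counting intervals are exact Poisson intervals (95%), and the limit that a count of 0 allows is 3 counts. All libraries of a group differed by more than counting error. Each fit was tested on simulated data. Places and overlaps came from GENCODE M21 (GRCm38), in which 146 of 146 listed genes were found, 138 of them with the start and end of the deposited table, and promoters from RefSeq (GRCm38.p6). The members and lists were chosen with earlier results of these data known. Named beside the members were every listed gene with an adjusted p under 0.05 and, per list, genes from among the 6 of highest mean lung CPM. Not all of those 6 were named, and the choice among them was not by rank. Also named were the 10 genes nearest to the cardiac and 5 nearest to the skeletal pattern (mean log2 CPM of 1 or more), and others for comparison. 1 listed gene is not reported here.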

Additional observations from a re-analysis of the deposited data

Results flagged for a closer look

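Myl7, the atrial light chain, was at 0.337 CPM in the liver of PS replicate 4, from 6 counts, and at 0 to 0.0663 CPM in the other 4 PS livers. The gap to the next liver took up 0.803 of the group's range, beyond what Dixon's criterion allows for a group of 5. It was 1 of 10 groups of livers so examined. For normal values chance alone marks about 1 group in 20. That rate need not hold for counts this low, and the groups examined included sums over the same members. Groups of 3, as in lung, were not examined in this way.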

How the results depend on the processing

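The number of lung genes called, 1542, became 3090 with DESeq2 and ranged from 0 (without CS replicate 3) to 2949 (without PS replicate 1) as single lungs were left out. Of the cardiac members, none was called in edgeR, 1 with DESeq2 (with or without its Cook's distance step), 2 without CS3 and PS1, and 0 to 3 with single lungs left out. Of the skeletal members, 1 was called with DESeq2 without Cook's distance (Acta1, adjusted p = 0.0084), 1 without CS3 and PS1, and 0 with any single lung left out. The 3 calls in the other muscle lists became 1 with limma at either pseudocount, 16 without CS3 and PS1, and 0 to 22 with single lungs left out. The step without Cook's distance and the fit without both lungs were chosen after seeing the data. The cause of these shifts was not tested.

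Directions turned as follows. Myh6 was at -1.003 and -2.14 with limma (pseudocounts 1 and 0.1) and at -3.58 without CS3 and PS1. Myl7 was at -0.62, -0.67 and -2.18 in the same 3 settings and Tnnt2 at -0.48, -0.80 and -1.92. Without both lungs Tnni3 was at -0.43 and Mylpf at 1.28. With single lungs left out, log2 fold changes ranged from -3.36 to 0.75 for Myh6, from -2.11 to 1.15 for Myl7, from -0.37 to 1.46 for Tnni3, from -1.94 to 0.60 for Tnnt2, from -6.70 to 0.87 for Nppa and from -3.59 to 1.15 for Mylpf. The log2 ratio of mean summed levels, PS over CS, was 0.018 for the cardiac set, ranging from -1.67 to 0.505, and -4.77 for the skeletal set, ranging from -5.37 to 0.089. Of 194 pairs of a gene and an alternative, 144 kept direction and side of the threshold, 22 turned direction, 22 lost a call and 9 gained one, 3 of these with a turned direction. DESeq2 gave no p-value for 5 further pairs, which were left out. The adjusted p of Actc1 ranged from 0.0279 to 0.235.

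Whether the replicate numbers of the labels pair the samples cannot be settled with so few animals. Deviations of same-numbered lungs correlated at 0.0498, -0.00648 and 0.0988, and those of other lungs at -0.12 to 0.0647. Same-numbered livers gave -0.358, -0.289, -0.343 and -0.0295, and other livers -0.509 to 0.466. With the replicate number as a block, Myh6 was at -1.82, Myl7 at -0.81 and Tnnt2 at -0.93, 1623 lung genes were called and no liver gene was. The other muscle lists kept 3 calls under this block, though Nebl lost its own (edgeR adjusted p = 0.0677). The 1 liver gene called became 163 with DESeq2, 26 with no filter, 2 with at least 10 counts in every library, 6 and 4 with limma, and 0 to 65 with single livers left out. No member was called in liver under any alternative, and a filter of at least 10 counts in every liver left no member to test. With 3 lungs a group and members at 0 to a few counts in several, depth limits Nppa, Acta1, Ckm and Myh4 most.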
